A study of Mus musculus with 4 samples.

Results

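The 33 genes described here encode matricellular proteins, matrix crosslinkers and proteins that remodel the extracellular matrix. They were taken by symbol from the 32285 genes in the count tables, and each symbol occurred once. The data are droplet single-cell RNA sequencing counts of cells from the retinal pigment epithelium (RPE, a pigmented sheet that serves the photoreceptors) and from the choroid, the vascular bed beneath it. The 4 libraries came from Vldlr-/- mice, which lack the very low density lipoprotein receptor, and from WT (wild-type) mice. Both genotypes were sampled at 1 month and 2 months of age, with 1 library for each genotype and age. The neural retina had been removed, and cells were freed enzymatically with trypsin, Dispase II and collagenase A. Strain background, sex and the number of animals in each library were not stated in the sources used. The series title concerns subretinal fibrosis, so the comparison asks how matrix gene expression in each cell class of Vldlr-/- tissue stood against WT tissue of the same age.

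Matricellular proteins such as thrombospondins, tenascins, osteopontin and the CCN family sit in the matrix and act mainly by binding growth factors, proteases and integrins, rather than by forming fibres. Lysyl oxidases crosslink collagen and elastin, fibrillins and fibulins build elastic fibres, and matrix metalloproteinases, ADAMTS proteases and their TIMP inhibitors set how fast matrix is turned over. In the eye, the RPE and the choroid share Bruch's membrane, a layered matrix in which TIMP3 accumulates, and fibroblasts and mural cells lay down matrix in scars beneath the retina.

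The deposited values were unique molecular identifier (UMI) counts, that is, molecules counted per gene and cell barcode. The libraries held 12022513 UMIs (Vldlr-/-, 1 month), 11194301 (WT, 1 month), 16292472 (Vldlr-/-, 2 months) and 23070271 (WT, 2 months). The filter on genes and mitochondrial share kept 1819, 1549, 1140 and 2047 barcodes in that order, and 1 barcode sequence was shared between the Vldlr-/- libraries of the 2 ages. The members made up 0.712%, 0.634%, 0.714% and 0.669% of those UMIs. Cell classes were named "-like" from marker genes that include none of the members. Fibroblast-like barcodes numbered 409 and 277 in the Vldlr-/- and WT libraries at 1 month, and 168 and 128 at 2 months. Macrophage-like barcodes numbered 34 and 29 at 1 month, and 55 and 57 at 2 months. RPE-like barcodes numbered 140 and 195 at 1 month, and 500 and 1061 at 2 months. Mural-like barcodes (pericytes and smooth muscle by their markers) numbered 46 and 55 at 2 months, and endothelial-like barcodes 95 and 74. At 1 month there were 17 Vldlr-/- and 20 WT mural-like barcodes, and 22 Vldlr-/- and 5 WT endothelial-like barcodes, too few for a ratio. Age and software version separate the libraries in the same way, so the ages are given side by side and not compared.

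Levels are UMIs for every 1000000 UMIs of the class in a library (CPM). The log2 ratio sets Vldlr-/- over WT, and a gene was called when the libraries were at least 2-fold apart with at least 30 UMIs together. With 1 library in each group no test of genotype could be made, and a lower sum in a class can reflect fewer expressing cells or less RNA in each. The 95% intervals are exact and cover counting error only, not the spread between animals or between cells. Vldlr, the targeted gene, was at 13.9 CPM in Vldlr-/- and 138 CPM in WT RPE-like barcodes at 1 month, and at 29.9 CPM in Vldlr-/- and 194 CPM in WT ones at 2 months. In rod-like barcodes, which are leftover photoreceptors, it was at 212 CPM in Vldlr-/- and 296 CPM in WT at 1 month, and 246 CPM in Vldlr-/- and 286 CPM in WT at 2 months. The sources used do not state whether the counted reads lie outside the deleted stretch, so the rod values check nothing.

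The 250 bases before the start sites of Ccn1 and Mmp3 are shown because Ccn1 was the member past 2-fold lower in fibroblast-like barcodes at 1 month and Mmp3 had the largest ratio there at 2 months. Both come from the RefSeq promoter table on GRCm38.p6, and Ccn1 lies at chr3:145649986-145650235 on the minus strand and Mmp3 at chr9:7445572-7445821 on the plus strand. Capitals mark matches to GGAATG, the core motif of TEAD factors, or to TGANTCA, the motif of AP-1, searched on both strands.
Ccn1: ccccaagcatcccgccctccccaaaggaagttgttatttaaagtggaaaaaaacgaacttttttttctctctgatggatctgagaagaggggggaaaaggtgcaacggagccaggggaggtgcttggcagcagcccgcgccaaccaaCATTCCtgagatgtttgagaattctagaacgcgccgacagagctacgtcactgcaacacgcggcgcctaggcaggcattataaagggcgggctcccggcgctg
Mmp3: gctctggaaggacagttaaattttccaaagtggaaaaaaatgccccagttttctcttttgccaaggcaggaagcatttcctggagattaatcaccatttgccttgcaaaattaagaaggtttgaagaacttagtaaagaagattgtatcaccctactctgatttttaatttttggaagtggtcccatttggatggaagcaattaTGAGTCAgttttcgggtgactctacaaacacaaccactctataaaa
The Ccn1 match is the reverse strand of GGAATG and begins 103 bases before the start, and the Mmp3 match begins 46 bases before it. Among all 32851 promoters in the table, 12.6% hold GGAATG and 6.75% hold TGANTCA in the same window. Of the 33 members 20 had an entry, of which 2 held GGAATG (Ccn1, Timp1) and 3 held TGANTCA (Tnxb, Efemp1, Mmp3). No member with an entry held TGACGTCA, the cyclic AMP response element, which 1.55% of all promoters hold.

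Most members were at their highest level in fibroblast-like barcodes. In all 4 libraries 17 of the 33 members had their highest level there among these 5 classes, counting those with at least 20 barcodes, and for 9 of the 17 the Poisson interval was clear of the next class in every library. These 9 were Thbs2, the CCN family growth factor Ccn2, the crosslinking enzyme Loxl1, the small proteoglycans Bgn and Fmod, the fibrillin Fbn2, the proteases Mmp2 and Mmp3, and the protease inhibitor Serpine2. Among the groups under 20 barcodes, which this count leaves out, Ccn2 (2952 CPM) and Loxl2 (80.9 CPM) were higher in the 17 Vldlr-/- mural-like barcodes at 1 month, and Fn1 and Timp1 in the 5 WT endothelial-like ones. Ccn2 was at 2541 CPM in Vldlr-/- and 2982 CPM in WT fibroblast-like barcodes at 1 month, and 1429 CPM in Vldlr-/- and 1368 CPM in WT at 2 months. In rod-like barcodes, which should lack the gene, Ccn2 was between 1.25 and 19.5 CPM, with 13 of the 15 UMIs of the Vldlr-/- library at 2 months in 1 barcode.

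Other members had their home elsewhere. Timp2, an inhibitor of metalloproteinases, was highest in macrophage-like barcodes of all 4 libraries, at 1197 CPM in Vldlr-/- and 872 CPM in WT at 1 month, and 1110 CPM in Vldlr-/- and 908 CPM in WT at 2 months. Its interval overlapped that of fibroblast-like barcodes in the WT library at 1 month. Timp3, the inhibitor bound in Bruch's membrane, led in endothelial-like barcodes at 2 months, at 5383 CPM in Vldlr-/- and 6734 CPM in WT. RPE-like barcodes followed, at 4555 CPM in Vldlr-/- and 4591 CPM in WT, and being many they gave 63.6% of the Timp3 UMIs in Vldlr-/- and 66.9% in WT, against 7.32% and 5.35% from fibroblast-like barcodes. The Timp3 gene overlaps Syn3 on the opposite strand in GENCODE M21, and with the strand setting unstated their reads cannot be told apart. The same limit holds for Fn1, Tnc, Thbs1, Ccn2, Lox, Loxl2, Fbn1 and Eln, which also share exon positions with an opposite-strand gene. Thbs1, a matricellular protein that activates latent TGF-beta, was at 454 CPM in Vldlr-/- and 317 CPM in WT RPE-like barcodes at 1 month, and 580 CPM in Vldlr-/- and 611 CPM in WT at 2 months. It led there in 3 libraries and stood slightly behind mural-like barcodes, at 639 CPM, in the Vldlr-/- library at 2 months, with overlapping intervals. Ccn3 belonged to mural-like barcodes, at 699 CPM in Vldlr-/- and 862 CPM in WT at 2 months, against at most 57.4 CPM in fibroblast-like barcodes of any library.

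A few members led in different classes at the 2 ages or had leads that overlap. Spp1 (osteopontin, a secreted integrin ligand) was highest in mural-like barcodes at 1 month, at 9124 CPM in Vldlr-/- (17 barcodes, 235 of 677 UMIs in 1) and 4024 CPM in WT (20 barcodes). At 2 months it led in endothelial-like barcodes, at 1108 CPM in Vldlr-/- and 1180 CPM in WT. Finer clustering (resolution 2.0) gave 2 mural-like clusters. The one led by Rgs5 and Spp1 held 17 Vldlr-/- and 20 WT barcodes at 1 month, and 20 and 22 at 2 months. The one led by Myh11 and Tagln held 0 in both at 1 month, and 26 Vldlr-/- and 33 WT barcodes at 2 months. The part of this make-up in the Spp1 levels was not tested. Eln, which encodes elastin, led in endothelial-like barcodes in 3 libraries, between 268 and 293 CPM, but in both Vldlr-/- libraries the interval overlapped that of the next class. Ccn4 was higher in rod-like than in fibroblast-like barcodes of 3 libraries. It reached 164 CPM in Vldlr-/- and 104 CPM in WT rod-like barcodes at 1 month, and 73.9 and 94.8 CPM at 2 months. Rod-like barcodes therefore give no free-RNA level for Ccn4.

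**Figure D1:**
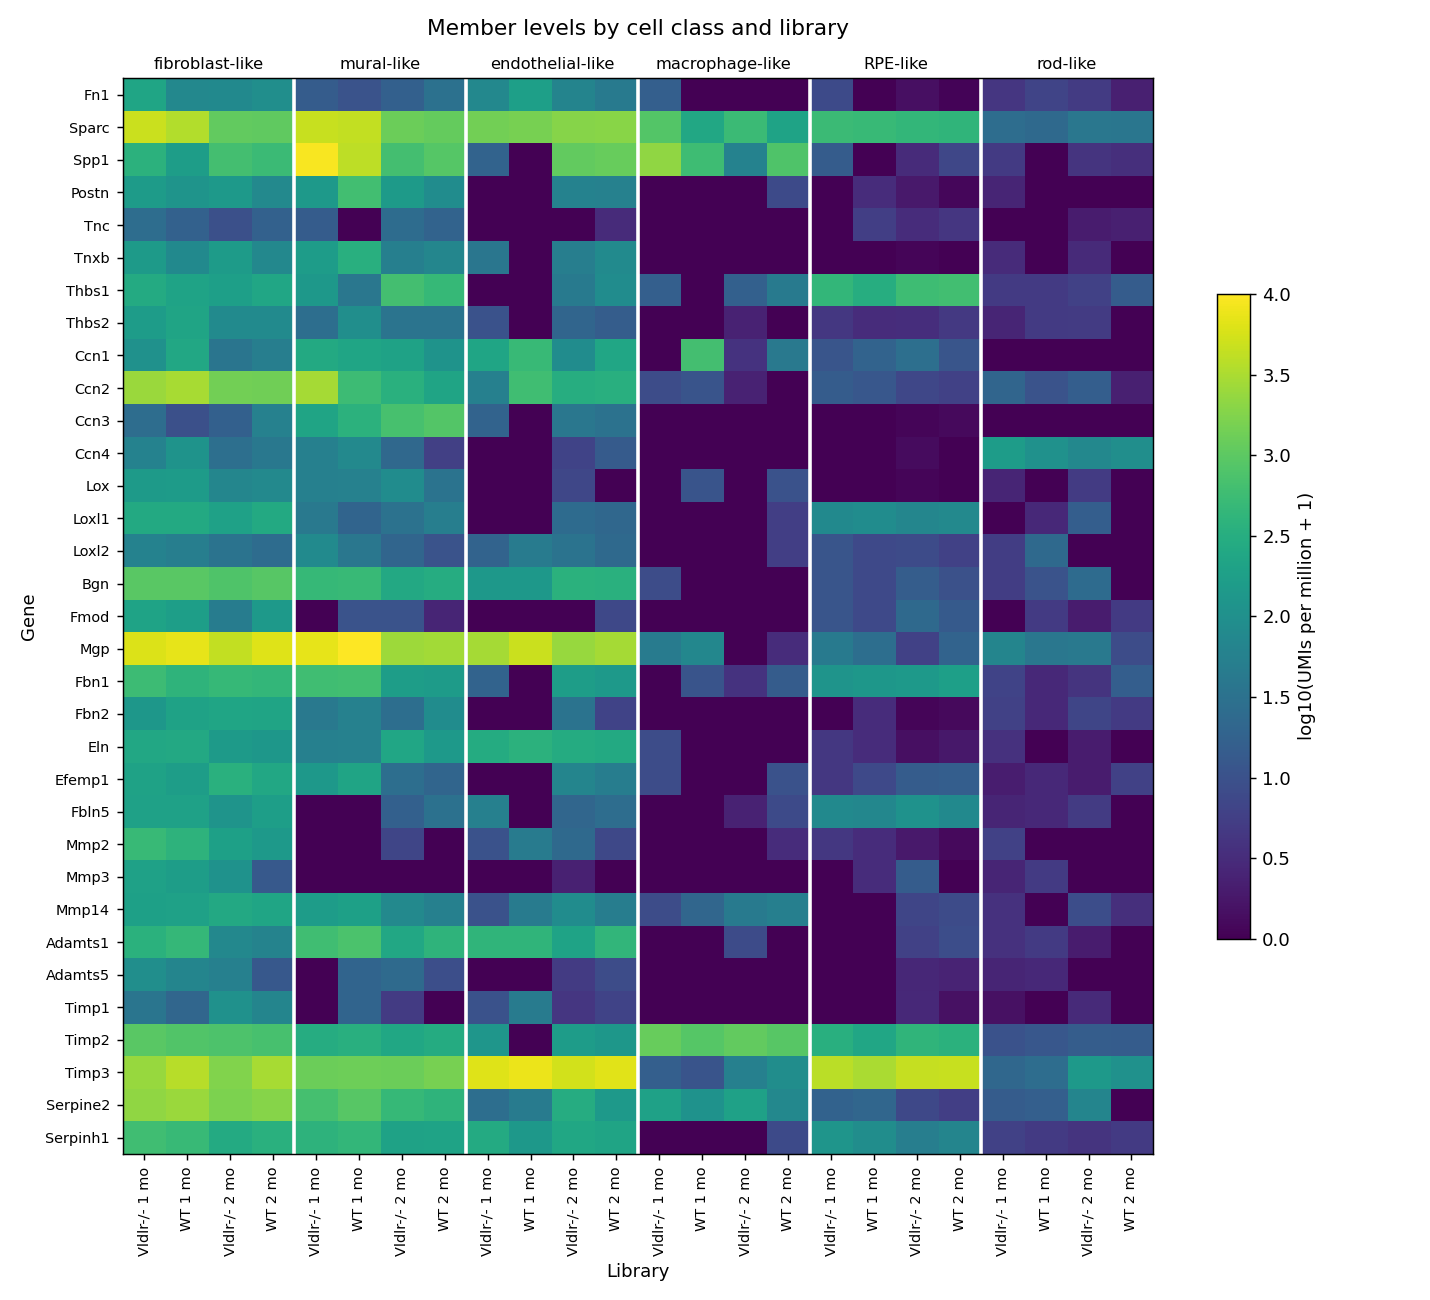
Levels of the 33 members (rows) in 6 cell classes and 4 libraries (columns), on a log10(CPM + 1) colour scale; Vldlr-/- stands left of WT at each age. The fibroblast-like columns are bright for most rows, Timp3 is bright in endothelial-like and RPE-like columns, and the rod-like columns are dark for most rows, with Ccn4 the clearest exception; columns with few barcodes (5 in WT endothelial-like at 1 month) are coarse.

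In fibroblast-like barcodes at 1 month, Fn1, Spp1 and Ccn3 were at least 2-fold higher and Ccn1 at least 2-fold lower in Vldlr-/-. That is 3 of 33 members higher and 1 lower. Of 10888 genes 1.82% were 2-fold higher and 1.68% lower, or 3.5% in either direction. All 33 members had at least 30 UMIs. The median member ratio was 0.23 on the log2 scale, beside 0.03 over all genes tested.

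Fn1 (chr1:71585520-71653200, minus strand, GRCm38) encodes fibronectin, an adhesive glycoprotein that scaffolds new matrix. It had 638 UMIs (224 CPM) in Vldlr-/- and 165 UMIs (73.1 CPM) in WT, a log2 ratio of 1.61 (1.37 to 1.87). The UMIs came from 69 of 409 Vldlr-/- barcodes and 33 of 277 WT barcodes, and the richest barcode gave 51 and 39 of them. Without the richest barcode of each library the ratio was 1.88. After thinning every barcode to 1500 UMIs, 9.37% of Vldlr-/- and 3.7% of WT barcodes held Fn1, with 14 Vldlr-/- and 7 WT barcodes left out as too shallow. In thinned rod-like barcodes the shares were 0.86% in Vldlr-/- and 0.952% in WT. At 2 months Fn1 was at 77.2 CPM in Vldlr-/- and 93.3 CPM in WT, and the interval of the ratio, -0.62 to 0.08, held 0.

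Spp1 had 1049 UMIs (369 CPM) in Vldlr-/- and 381 UMIs (169 CPM) in WT at 1 month, a log2 ratio of 1.13 (0.96 to 1.30). At 2 months it was at 641 CPM in Vldlr-/- and 539 CPM in WT, a ratio of 0.25 (0.12 to 0.38). Both ratios were above 0, with the larger one at 1 month.

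Ccn3 is a CCN family member often opposed to Ccn2 in its effects on matrix. It had 75 UMIs (26.4 CPM) in Vldlr-/- and 19 UMIs (8.42 CPM) in WT at 1 month, and 32 UMIs (15.9 CPM) in Vldlr-/- and 80 UMIs (57.4 CPM) in WT at 2 months. The ratios were 1.62 (0.91 to 2.46) and -1.83 (-2.49 to -1.24), in opposite directions. These are low counts: at 2 months 1 barcode gave 15 of the 32 Vldlr-/- UMIs and 1 gave 32 of the 80 WT UMIs. Mural markers summed to 884 CPM in Vldlr-/- and 1288 CPM in WT fibroblast-like barcodes. At least 8 of the 9 mural markers had UMIs in each fibroblast-like group, Myh11 being at 0 in 3 of them, and their part in the Ccn3 ratio was not tested.

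Ccn1, an early-response CCN gene that serum and stretch induce, was lower. It had 303 UMIs (107 CPM) in Vldlr-/- and 565 UMIs (250.3 CPM) in WT at 1 month, a log2 ratio of -1.23 (-1.44 to -1.03). Thinned to 1500 UMIs, 5.06% of Vldlr-/- and 13.7% of WT barcodes held it. In thinned rod-like barcodes it was in 0 of 349 Vldlr-/- and 0 of 105 WT barcodes, which allows shares of up to 0.86% and 2.86%. At 2 months it was at 34.9 CPM in Vldlr-/- and 50.9 CPM in WT, a ratio of -0.55 (-1.04 to -0.05). Genes that tissue digestion can induce moved the same way at 1 month: the 18 listed genes, immediate early genes and the heat shock genes Hspa1a and Hspa1b, summed to 14093 CPM in Vldlr-/- and 21742 CPM in WT, with 4 of 18 at least 2-fold lower and none higher. At 2 months they summed to 3146 CPM in Vldlr-/- and 2318 CPM in WT, with 2 of 18 at least 2-fold higher and none lower. Their part in the Ccn1 ratio was not tested. Ccn2 was much less apart, at -0.23 and 0.06.

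At 2 months 3 of the 33 members were higher (Mmp3, Adamts5, Tnxb) and 2 lower (Ccn3, Fmod), where 2.43% of 9924 genes were higher and 1.33% lower, or 3.76% in either direction. The median member ratio was 0.04, beside 0.01 over all genes. Mmp3, stromelysin, a protease that cleaves many matrix proteins and activates other metalloproteinases, had 215 UMIs (107 CPM) in Vldlr-/- and 17 UMIs (12.2 CPM) in WT. Its log2 ratio was 3.10 (2.42 to 3.94), but the UMIs came from 11 of 168 Vldlr-/- and 3 of 128 WT barcodes, and a single Vldlr-/- barcode gave 107 of the 215. Without the richest barcode of each library the ratio was 3.79. At 1 month Mmp3 was at 192 CPM in Vldlr-/- and 171 CPM in WT, where 1 WT barcode gave 327 of 386 UMIs. Adamts5, an aggrecan- and versican-cleaving protease, had 109 UMIs (54.3 CPM) in Vldlr-/- and 16 UMIs (11.5 CPM) in WT, from 17 and 6 barcodes, a ratio of 2.20 (1.48 to 3.10). A single WT barcode gave 11 of the 16, and without the richest barcodes the ratio was 3.43. It was at 95.6 CPM in Vldlr-/- and 65.1 CPM in WT at 1 month.

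Tnxb (chr17:34670535-34719815, plus strand), tenascin-X, which spaces collagen fibrils, was the most widely spread of the called members. It had 315 UMIs (157 CPM) in 87 Vldlr-/- barcodes and 100 UMIs (71.8 CPM) in 53 WT barcodes at 2 months, a ratio of 1.12 (0.80 to 1.47). At 1 month it was at 154 CPM in Vldlr-/- and 79.3 CPM in WT, a ratio of 0.95 (0.70 to 1.21), just under 2-fold. Postn, periostin, a matricellular protein of fibrotic tissue, was just under the threshold at 2 months, at 146 CPM in Vldlr-/- and 75.3 CPM in WT (0.95). At 1 month it was at 159 CPM in Vldlr-/- and 117 CPM in WT (0.44). Fmod, fibromodulin, which binds collagen fibrils, was at 47.3 CPM in Vldlr-/- and 144 CPM in WT at 2 months (-1.60, -1.97 to -1.24), with 112 of the 200 WT UMIs in 1 barcode. At 1 month Fmod was at 208 CPM in Vldlr-/- and 176 CPM in WT.

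Timp3 was lower in Vldlr-/- at both ages, though under 2-fold. It was at 2475 CPM in Vldlr-/- and 3704 CPM in WT at 1 month, a ratio of -0.58 (-0.63 to -0.54), and at 1774 CPM in Vldlr-/- and 3037 CPM in WT at 2 months, a ratio of -0.78 (-0.84 to -0.71). Between 92.7% and 97.1% of fibroblast-like barcodes held it, and no barcode gave more than 5.91% of its UMIs. The ratio was below 0 in each of the 4 fibroblast-like clusters with enough barcodes in both libraries, between -0.34 and -0.73. Timp1 ran the other way, at 35.2 CPM in Vldlr-/- and 19.9 CPM in WT at 1 month, and 106 CPM in Vldlr-/- and 64.6 CPM in WT at 2 months. At 2 months 164 of the 212 Vldlr-/- UMIs of Timp1 lay in 1 barcode, and without the richest barcode it was at 24.2 CPM in Vldlr-/- and 33.9 CPM in WT.

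The remaining members stayed under 2-fold at both ages. Lox, which crosslinks collagen and elastin, had ratios of -0.06 and -0.19, and both intervals held 0. Loxl1, which serves elastic fibres, had 0.01 and -0.48, and Loxl2 had 0.24 and 0.36. Serpinh1, the collagen chaperone HSP47, had 0.23 (0.12 to 0.34) at 1 month and -0.28 (-0.45 to -0.10) at 2 months. The gelatinase Mmp2 was at 507 CPM in Vldlr-/- and 392 CPM in WT at 1 month, and 190 CPM in Vldlr-/- and 142 CPM in WT at 2 months, ratios of 0.37 and 0.42. The elastic fibre members Fbn1, Fbn2, Eln, Efemp1 and Fbln5 had 1-month ratios of 0.46, -0.59, -0.02, 0.30 and -0.03, and 2-month ratios of 0.11, 0.04, 0.21, 0.46 and -0.55. Sparc was at 4768 CPM in Vldlr-/- and 3464 CPM in WT at 1 month (0.46), and at 1111 CPM in Vldlr-/- and 1048 CPM in WT at 2 months (0.08). Inside the largest fibroblast-like cluster at 1 month Sparc was lower in Vldlr-/-. Thbs2, Tnc, Ccn4, Bgn, Mmp14, Adamts1, Timp2 and Serpine2 lay between -0.95 and 0.60 over the 2 ages. Mgp, an inhibitor of calcification, was at 6276 CPM in Vldlr-/- and 7263 CPM in WT at 1 month, and 4381 CPM in Vldlr-/- and 6323 CPM in WT at 2 months. Across the 2 ages, which share no library, 21 of the 33 members had the same sign, beside 52.8% of 9592 genes.

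**Figure D2:**
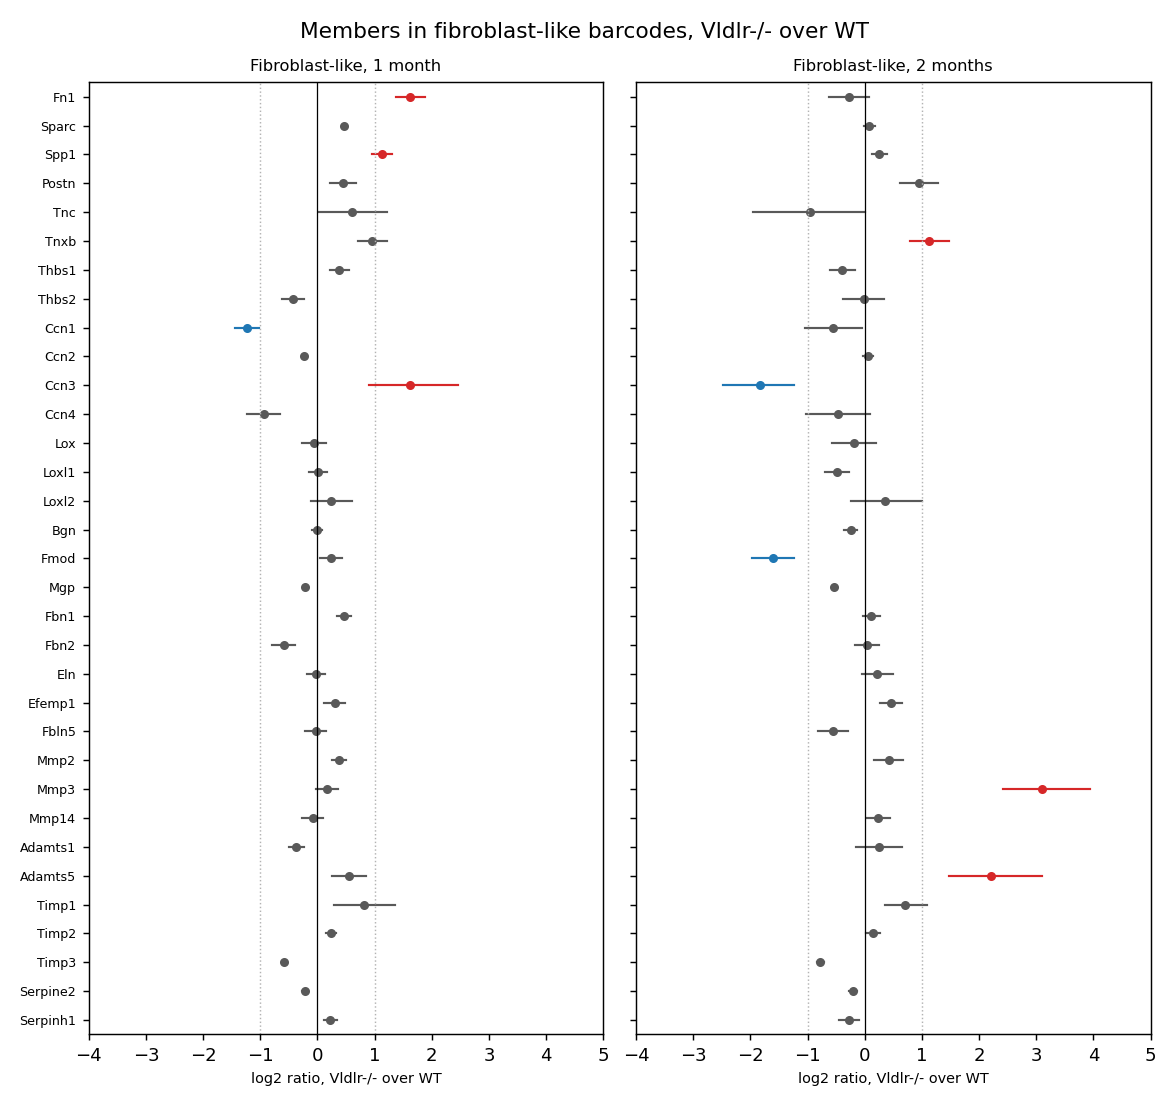
Log2 ratio of Vldlr-/- over WT for each member in fibroblast-like barcodes at 1 month (left) and 2 months (right); dots are ratios, bars 95% counting intervals, dotted lines 2-fold, red 2-fold higher and blue 2-fold lower. Most dots lie between the dotted lines; Fn1, Spp1 and Ccn3 lie right and Ccn1 left at 1 month, and Mmp3, Adamts5 and Tnxb lie right and Ccn3 and Fmod left at 2 months.

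The fibroblast-like class was not uniform, and several of its ratios differed between its clusters or once clusters were weighted alike. At 1 month it held 3 clusters of at least 20 barcodes in both libraries. The cluster led by Col1a1, Pi16 and Sfrp2 had the highest levels of several interstitial matrix members. Sparc was at 16515 CPM in Vldlr-/- and 15342 CPM in WT there, against 1329 CPM in Vldlr-/- and 1878 CPM in WT in the largest cluster. Within the largest cluster Sparc was thus lower in Vldlr-/-, although it was higher over the whole class. Mmp3, Adamts5, Fmod, Mmp2 and Fn1 were also highest in it. It made up 62 of 409 Vldlr-/- barcodes (15.2%) and 28 of 277 WT barcodes (10.1%) at 1 month, and 9 of 168 (5.36%) and 1 of 128 (0.781%) at 2 months. A second cluster, led by Ccn2, Apod and Myoc, had the highest Ccn2, at 5336 CPM in Vldlr-/- and 5666 CPM in WT. The largest cluster, led by Egr1, Lum and Jun, had the highest Spp1, at 557 CPM in Vldlr-/- and 222 CPM in WT.

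With clusters weighted alike in both libraries, the Fn1 ratio at 1 month was 0.71 and that of Ccn3 0.87, both under 2-fold. The Fn1 ratio was 0.65 in the Col1a1 cluster, 2.61 in the Ccn2 cluster and 0.46 in the largest one, where the interval (-0.83 to 1.87, 14 and 9 UMIs) held 0. Ccn1 was lower within each of the 3, at -1.88, -0.78 and -1.60 in that order, and in the main 2-month cluster, at -0.84, with every interval below 0. Spp1 was at 0.13, 0.92 and 1.32, and in the Col1a1 cluster its interval held 0. At 2 months a single cluster, led by Lsamp and Ror1, held 147 of 168 Vldlr-/- and 116 of 128 WT barcodes. Within it Mmp3 had 113 UMIs (62.3 CPM) in Vldlr-/- and 1 UMI (0.745 CPM) in WT, but 107 of the 113 lay in 1 barcode. Adamts5 was at 0.36, Tnxb at 0.46 and Fn1 at -1.08 there, so Adamts5 and Tnxb were under 2-fold inside the main cluster.

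**Figure D3:**
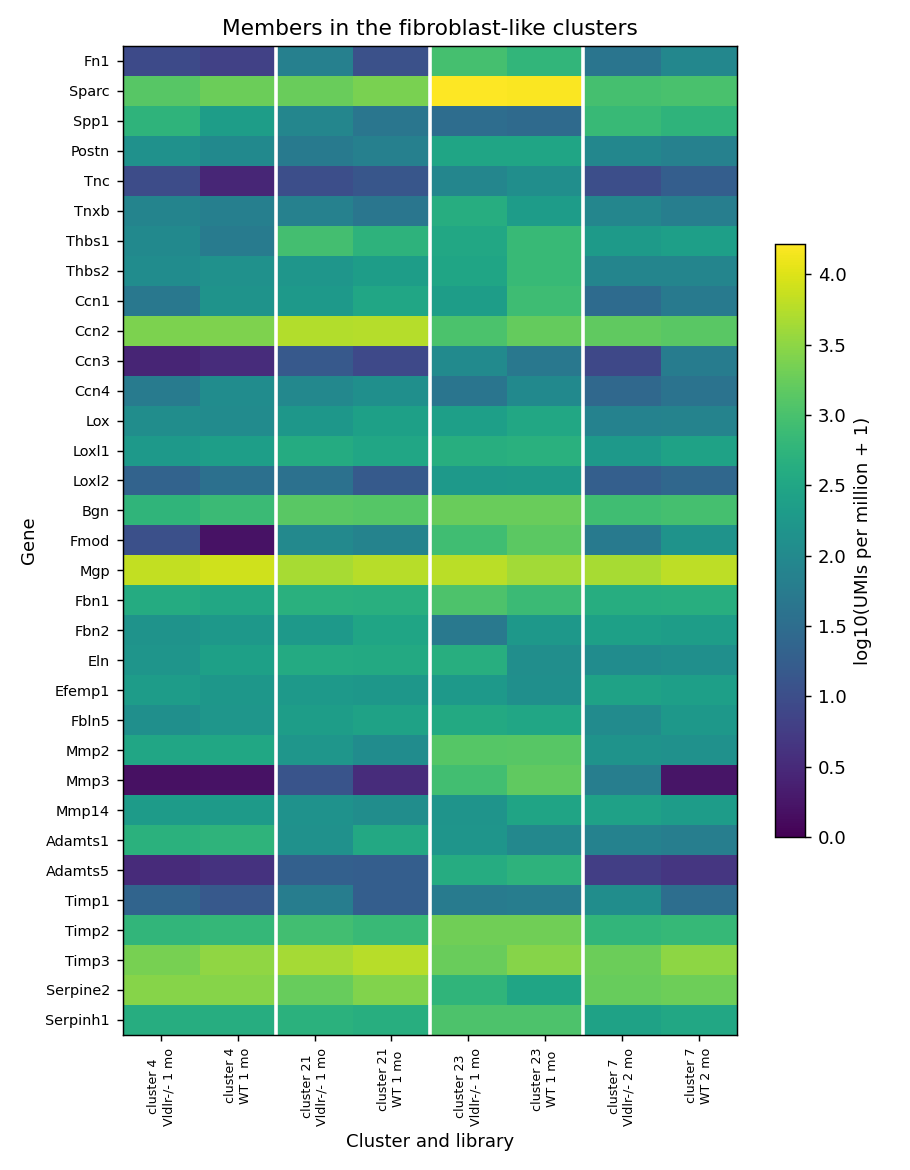
Levels of the members (rows) in the fibroblast-like clusters (columns; clusters 4, 21 and 23 at 1 month, cluster 7 at 2 months), on a log10(CPM + 1) colour scale, Vldlr-/- left of WT. Cluster 23 (led by Col1a1) is brightest for Sparc, Fn1, Mmp3, Adamts5 and Fmod, and cluster 21 for Ccn2.

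Fn1 was not confined to fibroblast-like barcodes. An unnamed cluster led by Lyz2, Lst1, Plac8 and Cybb (104 Vldlr-/- and 134 WT barcodes at 1 month) held Fn1 at 477 CPM in Vldlr-/- and 282 CPM in WT. In macrophage-like barcodes the gene had 2 UMIs in Vldlr-/- and 0 in WT at 1 month, and 0 in both at 2 months. The marker score of the Lyz2 cluster for macrophages was under the minimum of 3 set after the clusters had been seen.

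Macrophage-like barcodes gave the widest swings, from few barcodes. Finer clustering (resolution 2.0) gave 2 macrophage-like clusters. The Mrc1, Stab1 and Pf4 cluster held 3 Vldlr-/- and 4 WT barcodes at 1 month, and 45 and 40 at 2 months. The shallower Trem2, Fabp5 and Cst7 cluster held 31 Vldlr-/- and 25 WT barcodes at 1 month, and 10 and 17 at 2 months. The part of this make-up in the ratios of this class was not tested. At 1 month 5 members had at least 30 UMIs, and 2 were higher (Sparc, Spp1) and 1 lower (Ccn1), where 9.94% of 1036 genes were higher and 10% lower, or 20% in either direction. At 2 months 7 members passed the minimum, and 2 were higher (Sparc, Serpine2) and 2 lower (Spp1, Thbs1), where 3.82% of 5162 genes were higher and 3.27% lower, or 7.09% in either direction. Sparc, a collagen-binding matricellular protein, was higher at both ages. It had 114 UMIs (863 CPM) in Vldlr-/- and 25 UMIs (251 CPM) in WT at 1 month, a ratio of 1.76 (1.15 to 2.47), and 372 UMIs (543 CPM) in Vldlr-/- and 93 UMIs (212 CPM) in WT at 2 months, a ratio of 1.35 (1.02 to 1.70). The barcodes holding it numbered 15 of 34 and 7 of 29 at 1 month, and 8 of 55 and 10 of 57 at 2 months. Fibroblast markers in these barcodes summed to at most 80.2 CPM in any library. At 2 months endothelial markers summed to 39.4 CPM in Vldlr-/- and 66.1 CPM in WT, and RPE markers to 486 CPM in Vldlr-/- and 2670 CPM in WT. The part of these 3 lists in the Sparc ratios was not tested. Rod-like barcodes held Sparc at 22.7 to 37.9 CPM. The 37.9 CPM was in Vldlr-/- at 2 months, where 36 of 38 UMIs lay in 1 barcode, and without that barcode it was 2.03 CPM.

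Spp1 in macrophage-like barcodes ran in opposite directions. It had 285 UMIs (2158 CPM) in Vldlr-/- and 57 UMIs (571 CPM) in WT at 1 month, a ratio of 1.91 (1.5 to 2.35). At 2 months it had 40 UMIs (58.4 CPM) in Vldlr-/- and 343 UMIs (782 CPM) in WT, a ratio of -3.73 (-4.26 to -3.27). Single barcodes carried most of it: 201 of 285 UMIs in Vldlr-/- at 1 month and 223 of 343 in WT at 2 months. Without the richest barcode of each library the ratios were 1.08 and -3.04. RPE markers in these barcodes summed to 486 CPM in Vldlr-/- and 2670 CPM in WT at 2 months, 984 of the 1171 WT UMIs lying in 1 barcode, and their part was not tested. The barcodes with any Spp1 numbered 7 in Vldlr-/- and 3 in WT at 1 month, and 9 in each genotype at 2 months. Serpine2, which inhibits thrombin and plasminogen activators, had 134 UMIs in 6 Vldlr-/- barcodes and 32 UMIs in 5 WT barcodes at 2 months, a ratio of 1.40 (0.86 to 2.03). Thbs1 rested on 11 UMIs in Vldlr-/- and 19 in WT. Ccn1 had 0 UMIs in Vldlr-/- and 65 in WT at 1 month, 62 of them in 1 barcode, so no fold is given. The digestion-response genes summed to 1681 CPM in Vldlr-/- and 11048 CPM in WT macrophage-like barcodes at 1 month, 10 of 11 measured being at least 2-fold lower, while the median barcode stood at 903 CPM in Vldlr-/- and 451 CPM in WT.

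**Figure D4:**
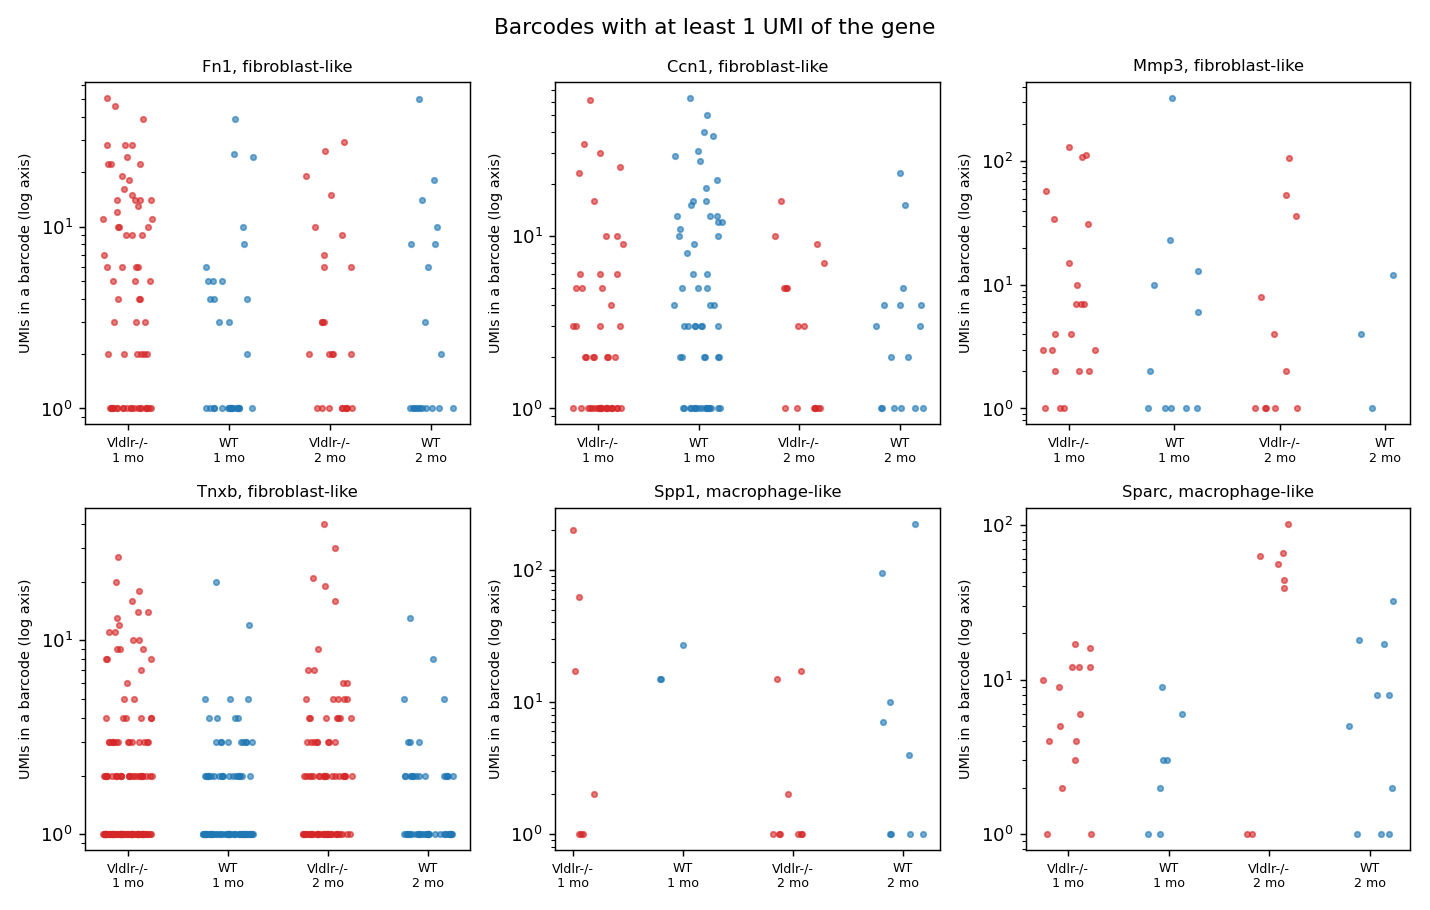
UMIs of 6 gene and class pairs in each barcode that held at least 1 (log axis), by library, Vldlr-/- (red) left of WT (blue) at each age; barcodes without the gene are not drawn. Tnxb is spread over many barcodes with few UMIs each, whereas Spp1 in macrophage-like barcodes has 1 barcode with 201 UMIs (Vldlr-/-, 1 month) and 1 with 223 (WT, 2 months).

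In endothelial-like barcodes at 2 months 26 members had at least 30 UMIs, and 3 were higher (Fbn2, Mmp2, Serpine2) and 2 lower (Ccn1, Adamts1), where 3.15% of 8592 genes were higher and 2.05% lower, or 5.2% in either direction. Ccn1 had 131 UMIs (87.7 CPM) in 40 of 95 Vldlr-/- barcodes and 218 UMIs (235 CPM) in 38 of 74 WT barcodes, a ratio of -1.42 (-1.74 to -1.10). Adamts1, a protease that cleaves versican, was at 209 CPM in Vldlr-/- and 428 CPM in WT, a ratio of -1.03 (-1.25 to -0.82), and it was under 2-fold, at -0.96, without the richest barcode of each library. The digestion-response genes summed to 5479 CPM in Vldlr-/- and 7496 CPM in WT, with 1 of 18 at least 2-fold higher and 2 lower, and their part in these ratios was not tested. Mural markers summed to 2283 CPM in Vldlr-/- and 3914 CPM in WT endothelial-like barcodes, all 9 being seen in each, and their part was not tested either. The direction was not shared by all classes at 2 months: Ccn1 was at 203 CPM in Vldlr-/- and 114 CPM in WT mural-like barcodes, a ratio of 0.83 (0.39 to 1.29). In fibroblast-like barcodes Adamts1 was at -0.37 at 1 month and at 0.25 at 2 months, where the interval (-0.15 to 0.66) held 0.

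Fbn2 (fibrillin-2) had 48 UMIs (32.1 CPM) in 11 Vldlr-/- and 5 UMIs (5.39 CPM) in 5 WT endothelial-like barcodes, a ratio of 2.45 (1.26 to 4.26). Mmp2 had 34 UMIs (22.8 CPM) in Vldlr-/- and 6 UMIs (6.47 CPM) in WT, a ratio of 1.72 (0.55 to 3.36), and Serpine2 was at 298 CPM in Vldlr-/- and 148 CPM in WT, a ratio of 1.01 (0.73 to 1.30). The Serpine2 ratio was under 2-fold in 5 of 14 alternatives, among them 0.96 without the richest barcode of each library. All 3 are genes of fibroblast-like barcodes in these libraries. Fibroblast markers in endothelial-like barcodes summed to 1217 CPM in Vldlr-/- and 459 CPM in WT, with 7 of 8 markers seen in each and Dpt at 0 in both. Erythroid markers summed to 535 CPM in Vldlr-/- and 4.31 CPM in WT, and the part of either list in the 3 ratios was not tested. With each barcode counted alike the Mmp2 ratio was -0.12. Mmp14, the membrane-bound activator of pro-Mmp2, was at 89.1 CPM in Vldlr-/- and 48.5 CPM in WT, a ratio of 0.87 (0.38 to 1.40). Thbs1 was lower and closer to 2-fold, at 44.2 CPM in Vldlr-/- and 87.3 CPM in WT, a ratio of -0.98 (-1.47 to -0.49). Tnxb was also lower, at 50.9 CPM in Vldlr-/- and 81.9 CPM in WT, a ratio of -0.69 (-1.16 to -0.21). Sparc, Spp1, Bgn, Eln and Ccn2 lay between -0.11 and 0.13.

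Mural-like barcodes at 2 months had 22 members with at least 30 UMIs, 1 higher (Lox) and 1 lower (Fbn2), where 2.31% of 5804 genes were higher and 2.58% lower, or 4.89% in either direction. Lox had 45 UMIs (87.9 CPM) in 15 of 46 Vldlr-/- barcodes and 20 UMIs (32.1 CPM) in 13 of 55 WT barcodes, a ratio of 1.44 (0.67 to 2.29). No Vldlr-/- barcode held more than 9 of its UMIs, and no WT barcode more than 3. Fbn2 had 14 UMIs (27.3 CPM) in Vldlr-/- and 55 UMIs (88.2 CPM) in WT, 25 of them in 1 barcode. Eln was at 232 CPM in Vldlr-/- and 146 CPM in WT (0.67, 0.27 to 1.08), and Postn at 150.4 CPM in Vldlr-/- and 88.2 CPM in WT (0.77, 0.25 to 1.30). RPE markers in these barcodes summed to 2369 CPM in Vldlr-/- and 5668 CPM in WT, 7 of 8 markers being seen in each with Best1 at 0, and their part was not tested.

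In RPE-like barcodes the abundant members lay close together in both genotypes. At 1 month 8 members had at least 30 UMIs and none was past 2-fold, where 3.21% of 2931 genes were higher and 2.7% lower, or 5.9% in either direction. At 2 months 22 had, and 2 were higher (Ccn1, Mmp3) and 2 lower (Mgp, Spp1), where 2.72% of 11549 genes were higher and 1.01% lower, or 3.73% in either direction. Timp3 was at 3882 CPM in Vldlr-/- and 3107 CPM in WT at 1 month, a ratio of 0.32 (0.21 to 0.44), and at 4555 CPM in Vldlr-/- and 4591 CPM in WT at 2 months, a ratio of -0.01 (-0.03 to 0.01). Thbs1 had ratios of 0.52 (0.17 to 0.87) and -0.07 (-0.13 to -0.02). Fbln5, which tethers elastic fibres, was at 108 CPM in Vldlr-/- and 79.7 CPM in WT at 2 months, a ratio of 0.44. Fbn1 was at 142 CPM in Vldlr-/- and 182 CPM in WT, a ratio of -0.35. Sparc, at 442 CPM in Vldlr-/- and 411 CPM in WT, differed by 0.11.

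The 4 called members in RPE-like barcodes were all scarce. Ccn1 had 187 UMIs (27.6 CPM) in 70 of 500 Vldlr-/- barcodes and 121 UMIs (10.5 CPM) in 86 of 1061 WT barcodes, a ratio of 1.39 (1.05 to 1.73). A cluster led by nuclear transcripts made up 21.2% of Vldlr-/- and 10.6% of WT RPE-like barcodes, and in barcodes under 1000 CPM of the nuclear RNA Malat1 the Ccn1 ratio was 0.52. Mgp had 33 UMIs (4.86 CPM) in Vldlr-/- and 202 UMIs (17.5 CPM) in WT, a ratio of -1.83 (-2.43 to -1.31). A single WT barcode gave 50 of the 202, and without the richest barcode of each library the ratio was -2.04. The Mgp call was lost in 2 of 16 alternatives, and the ratio nearest to no difference was -0.62. Those 2 were each barcode counted alike, and free RNA subtracted without the rod-like barcode richest in members. Spp1 had 14 UMIs (2.06 CPM) in Vldlr-/- and 72 UMIs (6.25 CPM) in WT, and with each barcode counted alike its ratio turned to 1.02. Rod-like levels at 2 months were 39.9 CPM in Vldlr-/- and 7.48 CPM in WT for Mgp, the 40 Vldlr-/- UMIs lying in 1 barcode, and 2.99 and 2.49 CPM for Spp1. Mmp3 had 94 UMIs in Vldlr-/- and 0 in WT, 93 of them in a single barcode, and no fold is given.

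**Figure D5:**
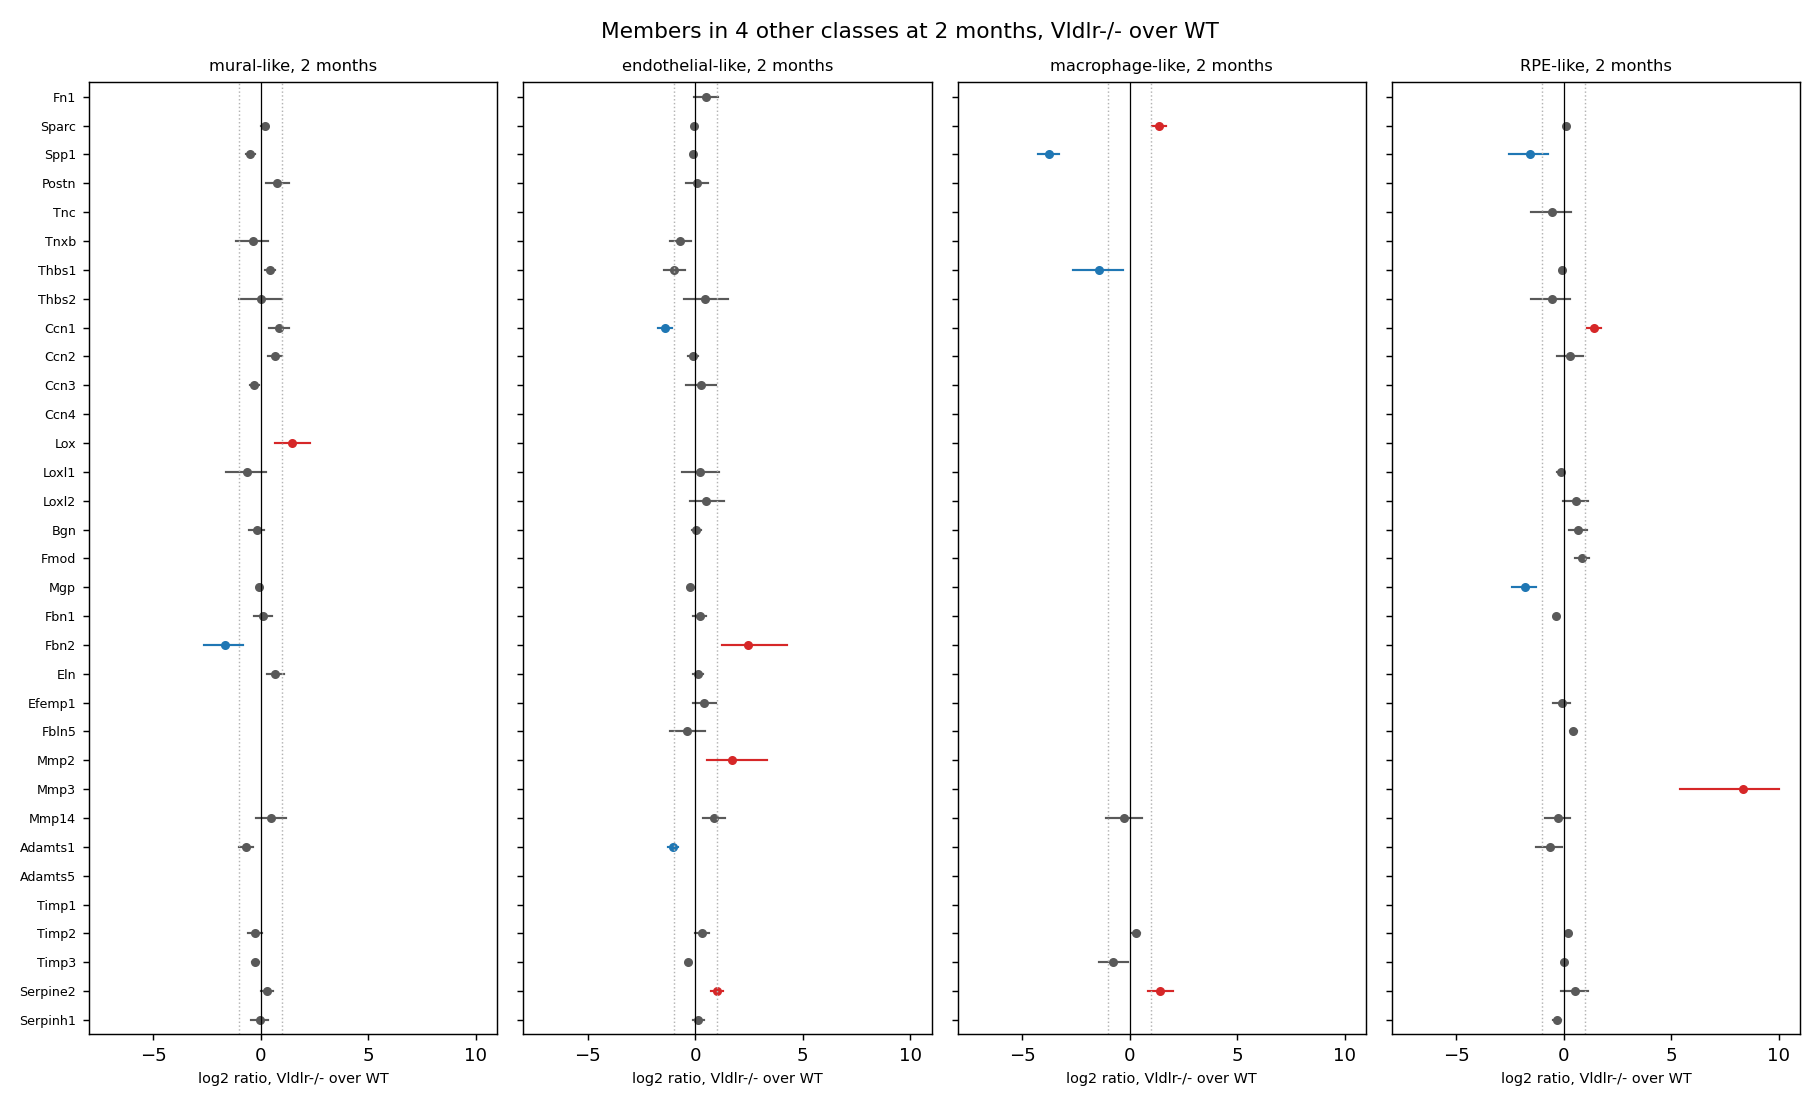
Log2 ratio of Vldlr-/- over WT for members with at least 30 UMIs in mural-like, endothelial-like, macrophage-like and RPE-like barcodes at 2 months; dots are ratios, bars 95% counting intervals (cut at 10), dotted lines 2-fold, red 2-fold higher and blue 2-fold lower. Most dots lie within 2-fold in the mural-like, endothelial-like and RPE-like panels, while 4 of 7 lie outside it in the macrophage-like panel; the RPE-like Mmp3 point, set by the 0.5 counts added to a WT count of 0, rests on 1 barcode.

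A list of 88 other matrix genes, read by the same rule, gives the setting. In fibroblast-like barcodes at 1 month 9 of 78 measured were higher in Vldlr-/- and none lower, beside 1.82% and 1.68% of all genes, led by Aspn (372 CPM in Vldlr-/-, 101 CPM in WT), Emilin2, Vcan and Ltbp1. The Col1a1 cluster made up 15.2% of Vldlr-/- and 10.1% of WT fibroblast-like barcodes at that age. Fibroblast markers summed to 26548 CPM in Vldlr-/- and 20096 CPM in WT, and the part of cluster make-up in these 9 was not tested. At 2 months 3 of 76 were higher, led by Emilin2 (33.4 CPM in Vldlr-/-, 2.87 CPM in WT), and 1 lower, Ltbp2, beside 2.43% and 1.33% of all genes. Emilin2, an elastin-associated glycoprotein, was past 2-fold at both ages. In mural-like barcodes 6 of 49 were higher, led by Tgfbi, Plat, Timp4 and Ogn, and 4 lower, led by the basement membrane linker Nid1 (72.3 CPM in Vldlr-/-, 343 CPM in WT), beside 2.31% and 2.58% of all genes. In endothelial-like barcodes 5 of 60 were higher, led by Smoc1, Serpinf1, Adamts2 and Mmp16, and 3 lower, Ogn, Adamts9 and Fbln1, beside 3.15% and 2.05% of all genes. In macrophage-like barcodes at 2 months 2 of 11 were higher, among them the urokinase gene Plau (64.2 CPM in Vldlr-/-, 9.12 CPM in WT), and 2 lower, Col8a1 and Col14a1, beside 3.82% and 3.27% of all genes. At 1 month 1 of 2 was higher there, P4hb, beside 9.94% of all genes. In RPE-like barcodes 1 of 13 was higher at 1 month, Nid2, beside 3.21% of all genes. At 2 months 4 of 47 were, Plod2, Adamts9, Serpinf1 and Hspg2, beside 2.72% of all genes, none being lower at either age.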

How the data were processed

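Cells of the RPE and choroid were analysed in 4 libraries, 1 for each genotype and age. The authors deposited raw UMI counts per gene and barcode, with no normalization. The file headers name Cell Ranger 6.0.2 for the 1-month and 7.0.1 for the 2-month libraries; per the submitters' processing notes Cell Ranger 3.0, Seurat 4.0 and the mm9 build were used. Intron counting and strand settings are not given in the sources used here. Gene positions come from GENCODE M21 (GRCm38), which holds 32158 of the 32285 gene identifiers.

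The filter required 300 detected genes and no more than 30% of UMIs from mitochondrial genes, and 6555 barcodes passed. Scrublet marked 26 (0.397%), too few to count as having worked; they were removed, and an alternative removed 89. With scanpy 1.11.5, 2000 variable genes, less the 20 members among them, gave 30 principal components, a graph of 15 neighbours and 30 Leiden clusters at resolution 1.0. A class name needed a marker score of at least 3 (log2). The minimum was first 1 and was raised after clusters and leading genes had been seen, which left the Lyz2 cluster out of macrophage-like. A cluster near RPE-like, led by Cox8b, Pmel and Dct (25 Vldlr-/- and 41 WT barcodes at 1 month, 106 and 396 at 2 months), and a shallow one near fibroblast-like (84 and 61, then 13 and 8) stayed unnamed.

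Counts were summed by class and library. Ratios add 0.5 counts and need 20 barcodes in each library; intervals are exact Poisson or conditional binomial, at 95%. All genes were put through the same rule, and the calculation was tested on simulated counts. The members and lists were chosen with earlier results of these data known. Every member is accounted for; those named with values are past 2-fold in a class or described for their highest class, and at most 4 other matrix genes are named per direction, class and age, except for a result that is not reported here. Numpy 2.4.6, scipy 1.17.1, pandas 2.3.3 and matplotlib 3.10.9 were used.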

Additional observations from a re-analysis of the deposited data

Results flagged for a closer look

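In 6 cases the ratio of Vldlr-/- over WT ran in opposite directions at the 2 ages, with both counting intervals clear of 0. The difference between ages was not tested, and age and software version cannot be told apart. In macrophage-like barcodes Spp1 had a log2 ratio of 1.91 at 1 month and -3.73 at 2 months. In fibroblast-like barcodes Ccn3 had 1.62 and -1.83, Fmod 0.24 and -1.60, Thbs1 0.38 and -0.39, and Serpinh1 0.23 and -0.28. In RPE-like barcodes Thbs1 had 0.52 and -0.07. Of these, Thbs1 in RPE-like and Serpinh1 in fibroblast-like barcodes rest on many barcodes: Thbs1 was seen in 378 of 500 Vldlr-/- and 914 of 1061 WT barcodes at 2 months, and Serpinh1 in 137 of 168 and 111 of 128. Spp1, Ccn3 and Fmod rest on few: at 2 months they were seen in 9 Vldlr-/- and 9 WT, 9 and 9, and 15 and 13 barcodes in that order.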

How the results depend on the processing

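Of 111 alternative counts of members past 2-fold, 93 stayed within 1.5 times the reported count. Subtracting free RNA measured in rod-like barcodes gave 9 in fibroblast-like, 8 in mural-like, 3 in endothelial-like, 2 in macrophage-like and 12 in RPE-like barcodes at 2 months; in the Vldlr-/- library at 2 months 1 rod-like barcode held 385 of 478 member UMIs. Leaving out the rod-like barcode richest in members from each library, an alternative chosen after seeing the data, the count was 7 in fibroblast-like at 1 month, and 8 in fibroblast-like and 8 in mural-like at 2 months. Counting each barcode alike gave 4 in mural-like and 2 in macrophage-like barcodes at 2 months, and turned Mmp2 in endothelial-like (-0.12) and Spp1 in RPE-like barcodes (1.02). A minimum of 10 UMIs gave 4 in mural-like barcodes. With no minimum the counts were 7 in mural-like, 10 in endothelial-like, 16 in macrophage-like and 11 in RPE-like barcodes at 2 months, and 11 in macrophage-like and 3 in RPE-like at 1 month. Weighting clusters alike gave 2 in fibroblast-like barcodes at 1 month. The cause was not tested. Of the 27 called ratios, 9 stayed past 2-fold in every alternative run: Ccn1 and Spp1 at 1 month and Ccn3 and Mmp3 at 2 months in fibroblast-like barcodes, Fbn2 in endothelial-like, Lox in mural-like, and Sparc at 1 month and Spp1 at both ages in macrophage-like barcodes. No alternative both left out the richest barcode and weighted clusters alike. Most Mmp3 UMIs inside the main fibroblast-like cluster at 2 months lay in 1 Vldlr-/- barcode, so its place among the 9 does not cover that case. Mural-like, endothelial-like and macrophage-like barcodes were each 1 cluster, so weighting clusters alike could not change their ratios. The part of the finer mural-like and macrophage-like clusters in these ratios was not tested. Without the richest barcode of each library, also chosen after seeing the data, Mmp3 in RPE-like barcodes was under the 30-UMI minimum. Adding the unnamed clusters kept every count within 1.5 times. With the cluster led by Cox8b, Pmel and Dct added, Spp1 in RPE-like barcodes at 2 months was no longer called. The 1000-gene minimum was not run for macrophage-like barcodes at 1 month, which left too few. No paired analysis was possible because each group has 1 library. With no replicate, the spread between animals is unknown, and scarce members are limited by low counts.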
